A study of Mus musculus with 2 samples.

Results

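Among 14300 single cells from the afferent lymphatics of the mouse neck, 616 were fibroblasts with transcripts of Myoc and none of Prg4. They were chosen by detection alone, a gene counting as detected in a cell with 1 or more of its UMIs (unique molecular identifiers, the count of captured transcripts). A cell had to have Pdgfra, Dcn and Myoc, at least 2 of Ccn5, Thbs2, Angptl1 and Col12a1, and no Prg4. Of these Myoc cells without Prg4, 418 of 7308 cells were in the adult library and 198 of 6992 in the aged one. Cells with Pdgfra and Dcn numbered 5601 and 5660, and are called fibroblasts here. The same rule with Prg4 detected gave 218 and 181 Myoc cells with Prg4, and 4965 and 5281 other fibroblasts remained.

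Cells were sorted by flow cytometry from the vessels that feed the submandibular lymph nodes, and sequenced as droplet 3' libraries. Both groups were FVB/N mice carrying the Prox1-GFP reporter, which marks cells by the activity of the promoter of Prox1, a transcription factor of lymphatic endothelium. The adult group was 1 library pooled from 6 mice aged 12 weeks, and the aged group 1 library pooled from 6 mice aged 93 weeks. Both held cells called female and cells called male by Xist and Y-linked transcripts. With 1 library per age there is no replicate check, no test between groups was made, and all intervals are 95% intervals that cover counting error only. Age cannot be told apart from the library, nor from differences between the pooled mice.

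Both tables had libraries that share barcodes. Of the adult barcodes 6977 (95.5%) also stood in the aged table, with UMIs per cell at 0.506 times the adult ones in the median, and they were counted once, as adult. Of the adult Myoc cells without Prg4, 415 had such a copy, and 247 of the copies met the rule again. The aged table gives no gene names, so its rows were named in the order of the adult table. For the 8 genes of the rule and Dkk2 the values of shared cells correlated between 0.822 and 0.987 on the same row, and at most at 0.412 on the row before or after (a description over shared cells). Depth was alike, with medians of 13615 and 14084.5 UMIs per Myoc cell without Prg4 and 13343 and 12471 per other fibroblast.

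Myocilin, the product of Myoc, is a secreted glycoprotein best known from the trabecular meshwork of the eye, where mutant forms cause glaucoma. Ccn5 encodes a matricellular protein of the CCN family, Thbs2 a thrombospondin that limits vessel growth and shapes collagen fibrils, Angptl1 an angiopoietin-like protein, Col12a1 a collagen that decorates fibrils, and Dkk2 a secreted Wnt antagonist. Prg4 encodes lubricin, the lubricating proteoglycan of joint linings and of gliding fascial planes.

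Promoters are shown for Myoc, the gene that every chosen cell had to hold, for Dkk2, the marker that the rule did not use, and for Angptl1, which differs from both in the motif marked. RefSeq promoters were matched for 4 of the 5 markers (Myoc, Thbs2, Angptl1 and Dkk2) and not for Ccn5. Each run holds the 250 bases before the annotated start on GRCm38.p6, 5′ to 3′ on the gene's strand, and capitals mark the TATA-box letters TATAAA.
Myoc, chr1:162638900-162639149, plus strand: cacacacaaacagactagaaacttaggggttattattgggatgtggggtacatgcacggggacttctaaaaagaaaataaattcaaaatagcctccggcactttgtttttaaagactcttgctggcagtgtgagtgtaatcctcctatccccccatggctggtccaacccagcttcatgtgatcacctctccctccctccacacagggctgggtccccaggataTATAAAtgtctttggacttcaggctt
Dkk2, chr3:132085042-132085291, plus strand: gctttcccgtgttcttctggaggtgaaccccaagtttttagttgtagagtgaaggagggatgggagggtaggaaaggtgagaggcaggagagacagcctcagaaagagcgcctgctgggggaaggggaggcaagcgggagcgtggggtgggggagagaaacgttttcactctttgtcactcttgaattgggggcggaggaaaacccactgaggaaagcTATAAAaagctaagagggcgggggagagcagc
Angptl1, chr1:156838773-156839022, plus strand: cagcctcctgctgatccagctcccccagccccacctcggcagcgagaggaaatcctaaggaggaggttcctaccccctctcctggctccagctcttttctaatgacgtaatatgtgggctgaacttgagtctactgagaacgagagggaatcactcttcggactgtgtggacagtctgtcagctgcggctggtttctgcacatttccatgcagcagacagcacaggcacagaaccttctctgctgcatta

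In the Myoc run TATAAA began 26 bases before the start, and in the Dkk2 run 32 bases before it. Thbs2, whose start is uncertain because the transcript did not hold the bases that follow it, had the letters on the other strand, and Angptl1 did not hold these letters in this window. On either strand TATAAA occurred in 12.4% of 32851 promoters of the same length. The AP-1 letters TGANTCA (6.75% of promoters), the TEAD letters GGAATG (12.6%) and the TCF/LEF letters CTTTGA (13.8%) were in none of the 4, searched on both strands with no overlap to TATAAA. A match is a description of letters, not a site.

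The label of these cells was checked on markers. Col1a1 was found in 99.8% of adult and 99.5% of aged Myoc cells without Prg4, Col1a2 in all of them, and Dkk2, which the rule did not use, in 61.2% and 60.6%, against 24.7% and 22.1% of other fibroblasts. The epithelial marker Epcam and the immune marker Ptprc were found in 0 of 418 and 0 of 198 cells, which allows shares of up to 0.718% and 1.52%, and Ptprc was at or near 0 in other fibroblasts too. Of the other immune markers Cd3e was found in 8.85% and 9.09% of the cells (15.5% and 18.5% of other fibroblasts) and Csf1r in 4.78% and 0.505%, with summed levels of the 7 markers of 40.6 and 35.3 CPM (a set's UMIs scaled to a total of 1000000) against 77.2 and 91.2 in other fibroblasts. Of 6 pericyte markers Abcc9 was found in 60% and 65.2% of the cells (39.2% and 49.6% of other fibroblasts) and Kcnj8 in 31.1% and 40.9% (20.9% and 22.6%), while Rgs5 and Higd1b were each under 1%; the list summed to 231 and 240 CPM against 157 and 171. The Schwann cell marker S100b was found in 16.7% and 14.1% of the cells (12% and 10.6% of other fibroblasts) and Mbp in 12.4% and 11.6% (24.6% and 17.9%). The perineurial marker Slc2a1 was found in 18.2% and 13.1% (21.4% and 15.9%). Sox10 and Moxd1 were in none of the adult cells and each in 0.505% of the aged ones. The part of these other markers in the results was not tested. Of 6 tendon markers none reached 10% of the cells. Their summed levels were 8.89 and 21.5 CPM, against 9.67 and 4.56 in other fibroblasts, so only the aged cells lay higher. After thinning to 6000 UMIs per cell, Tnmd was found in 2.22% and 7.73% of the cells, against 0.45% and 0.647% of other fibroblasts. Mkx and Thbs4 stood at 0 in the adult, Scx and Kera at 0 in the aged cells. Of 6 cartilage markers only Sox9, which fibroblasts also express, reached 10% of the cells, and Acan and Chad were at 0 in both libraries. Lymphatic endothelial markers were low except Pdpn (68.4% and 58.1% of cells), with Lyve1 at 0 in the adult and Ccl21a at 0 in the aged cells. Dcpp1, a salivary gland transcript, was found in 41.4% of the aged and none of the adult cells, and its part in the age comparison was not tested. It was also found in 37.1% of aged other fibroblasts and 36.5% of aged cells with Prg4, so it is not particular to these cells. The epithelial and salivary gland list summed to 38.8 CPM in the aged cells, against 646 in aged other fibroblasts. Blood endothelial Pecam1 was found in 19.1% and 9.60% and Plvap in 14.1% and 22.7% of the cells.

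The first question was how common these cells were at each age. They made up 7.46% (exact Clopper-Pearson interval 6.79 to 8.18%) of adult and 3.50% (3.03 to 4.01%) of aged fibroblasts, so the intervals do not overlap. Among cells called female the shares were 8.5% (7.49 to 9.60%) and 5.53% (4.58 to 6.60%), and among cells called male 6.08% (5.12 to 7.15%) and 1.97% (1.5 to 2.54%). The aged share was lower in both sexes, and lowest in male cells. Because detection depends on depth, the rule was also applied after each cell was thinned to 6000 UMIs, which left out 316 adult and 339 aged fibroblasts and gave 5.51% (4.86 to 6.22%) and 2.59% (2.15 to 3.1%). The dissection and the sort can set such shares, and their part was not tested. Fibroblasts with at least 1 Myoc UMI showed the same order, at 15.6% (14.6 to 16.5%) and 8.30% (7.60 to 9.05%), against 1.29% and 0.873% of endothelial cells, which should lack the gene and had lower medians of 7376 and 6194 UMIs.

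The Myoc cells with Prg4 stood at 3.89% (3.40 to 4.43%) and 3.20% (2.75 to 3.69%) of fibroblasts. Among female cells they were 2.97% (2.37 to 3.67%) in the adult and 4.03% (3.22 to 4.97%) in the aged library, and among male cells 4.59% (3.76 to 5.55%) and 2.55% (2.01 to 3.19%), so the sexes went opposite ways. After thinning the shares were 1.91% (1.53 to 2.36%) and 2.13% (1.73 to 2.60%). Of all Myoc cells that met the rule, with or without Prg4, 218 of 636 in the adult library carried Prg4 (34.3%, 30.6 to 38.1%), as did 181 of 379 in the aged one (47.8%, 42.6 to 52.9%). The aged share was higher in female cells (42.1% against 25.9%) and in male cells (56.4% against 43.0%), after thinning (45.1% against 25.8%) and among cells with 10 or more Myoc UMIs (54.2% against 34%). The boundary between both sets is not sharp. A Prg4 UMI was found in 22.3% of adult and 19.4% of aged endothelial cells and in 16% and 15.8% of other fibroblasts, with median depths of 7376 and 6194 UMIs in the former and 13343 and 12471 in the latter. Of the Myoc cells with Prg4, a single Prg4 UMI was held by 51 of 218 in the adult and 42 of 181 in the aged library, and 2 by a further 21 and 27. With 3 or more Prg4 UMIs required, the shares were 23% (19.7 to 26.4%) and 29.6% (25 to 34.4%), and the intervals overlap.

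**Figure D1:**
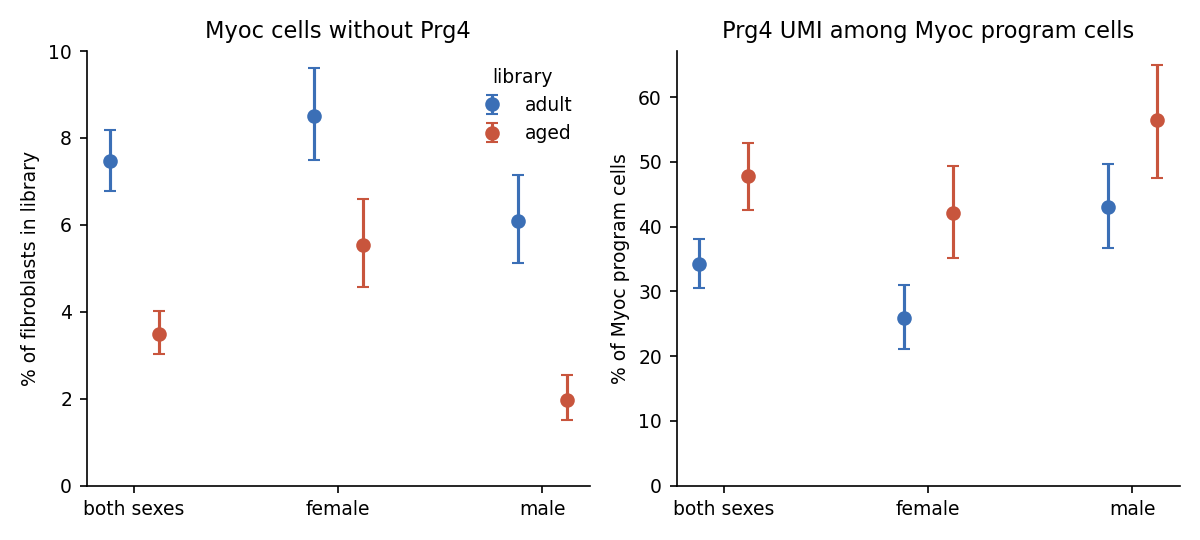
Left, Myoc cells without Prg4 as a percentage of fibroblasts in the adult (blue) and aged (red) library, for both sexes and for cells called female or male; right, the percentage of all Myoc cells meeting the rule that had a Prg4 UMI. Points are shares and bars exact 95% intervals of counting error; the left shares are lower in the aged library (3.50% against 7.46% overall) and the right shares higher (47.8% against 34.3%).

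The genes of the rule chose the cells, so their levels are a description. Summed Myoc stood at 1563 CPM in adult and 1202 CPM in aged Myoc cells without Prg4, against 25.8 and 5.81 CPM in other fibroblasts. Within the cells it was spread widely, with quartiles of 2.70 and 24.5 per 10000 UMIs around a median of 11.4 in the adult and of 1.16 and 16.8 around 5.85 in the aged library. Ccn5 stood at 305 and 268 CPM (55.1 and 53.9 in other fibroblasts), Thbs2 at 325 and 346 (87.5 and 85.6), Angptl1 at 175 and 272 (53.6 and 80.1), and Col12a1 at 113 and 111 (23 and 29.5). Of these 5 genes Angptl1 alone passed 1.5-fold between ages, at a log2 ratio of aged over adult of 0.63, and other fibroblasts stood at 0.57. In female cells Angptl1 stood at 0.53, short of 1.5-fold, and in male cells at 1.0, where Myoc also passed it (-0.70).

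The cells varied in how far they met the rule. Of the adult cells 170 had 2 of the 4 genes, 156 had 3 and 92 had all 4, and of the aged cells 78, 77 and 43. Just outside the rule lay fibroblasts with Myoc, no Prg4 and 1 of the 4 genes (137 adult, 46 aged) or none (49 and 19). One Myoc UMI alone was held by 61 adult and 51 aged cells, and 10 or more by 252 and 92. Dkk2, a marker outside the rule, stood at 179 CPM in the 83 adult cells with 1 or 2 Myoc UMIs and at 297 CPM in those with 10 or more, and at 99.5 and 262 CPM in the aged library. The retinoid-degrading enzyme Cyp26b1 did not follow this order in the adult library, at 52.0 and 40.8 CPM, so not every gene of these cells was lower where Myoc was low.

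**Figure D2:**
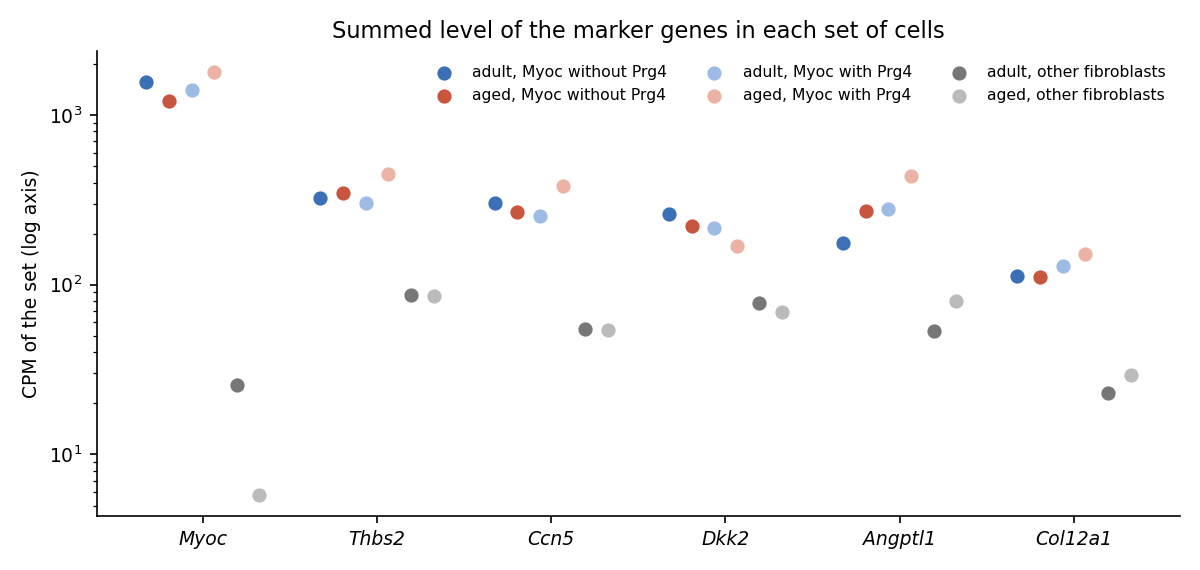
Summed level in CPM (log axis) of Myoc, Thbs2, Ccn5, Dkk2, Angptl1 and Col12a1 in Myoc cells without Prg4, Myoc cells with Prg4 and other fibroblasts of each library, 1 point per set. All genes but Dkk2 chose the cells; each lies above the other fibroblasts of its library, Myoc at 1563 against 25.8 CPM in the adult one.

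Over all 11261 fibroblasts the genes whose values per cell were most like Myoc were Ccn5 (r = 0.375) and Thbs2 (0.344), both of the rule, then the elastic fibre gene Fbln2 (0.293) and the galectin Lgals3 (0.286). Angptl1 (0.272), the cyclin Ccnd1 (0.259), Gas1 (0.258), the matrix protein gene Tgfbi (0.251), Cd9 (0.250) and Dkk2 (0.248) followed. These are descriptions over cells that share libraries and differ in depth, and neighbours in this order lie close together.

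Compared with other fibroblasts, the cells without Prg4 had higher levels of Igfbp3, Lepr, Dkk2, S100a4 and Ccnd1, and lower levels of Gata6, Nav3 and Hsd11b1, in both libraries. In the cells with Prg4 Igfbp3 stood at 55.7 and 98.4 CPM, Lepr at 55.7 and 38.8 and Dkk2 at 217 and 169. S100a4 stood there at 335 and 719 CPM and Ccnd1 at 77.9 and 47.7. Each was above other fibroblasts there too, so these higher levels are not particular to the cells without Prg4. Gata6, Nav3 and Hsd11b1 were likewise below other fibroblasts in the cells with Prg4. Of 9006 genes measured in the adult library 64 were 2-fold or more higher (0.711% of genes) and 104 lower (1.15%). In the aged library 142 of 8785 were higher (1.62%) and 150 lower (1.71%). Of 8565 genes measured in both, 49 were higher (0.572%) and 50 lower (0.584%) in both. Since the rule picked these same cells by their transcripts, the differences describe the cells and test nothing. A log2 ratio is taken after adding 1 CPM to both values, while its interval is not, so low genes can lie outside their interval.

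Igfbp3, a carrier of insulin-like growth factors, stood at 99.0 CPM in adult and 72.4 CPM in aged Myoc cells without Prg4, against 27.2 and 15.4 CPM in other fibroblasts, which are log2 ratios of 1.83 (1.73 to 2.0) and 2.16 (2.01 to 2.45). One aged cell held 35.6% of its UMIs there. Lepr, the leptin receptor, stood at 50.5 and 33.2 CPM against 13.6 and 4.12 (1.82 and 2.74). Dkk2 stood at 262 and 221 CPM against 77.7 and 69.4 (1.74 and 1.66). Each of the 3 was higher in both libraries.

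Kdr, the VEGF receptor 2 known from endothelium, was found in 13.4% and 16.2% of the Myoc cells without Prg4 and in 5.04% and 5.06% of other fibroblasts (1.44 and 1.77), while the endothelial genes Flt1, Cdh5 and Cldn5 were each in at most 2.15% of the cells; the part of Pecam1 and Plvap signal beside it was not tested. Kdr was 1 of the 2 named genes not past 1.5-fold in both sexes of both libraries. Trhde, which degrades thyrotropin-releasing hormone, had ratios of 1.78 and 1.67. Cyp26b1, which clears retinoic acid, stood at 42.8 and 73.1 CPM against 15.4 and 15.8 (1.41 and 2.14), and the fatty acid hydroxylase Cyp4b1 had 1.82 and 2.12. Slco2a1, the prostaglandin transporter, stood at 64.4 and 61.8 CPM against 23.5 and 10.5 (1.42 and 2.45).

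Among matrix and cell surface genes, P4ha3, a subunit of collagen prolyl hydroxylase, had ratios of 1.81 and 1.87, and the neural adhesion gene Gldn 1.65 and 1.88. Emb, an immunoglobulin-family surface protein, stood at 165 and 116 CPM against 40.8 and 41.5 (1.98 and 1.46). S100a4, a calcium-binding protein of motile mesenchymal cells, stood at 378 and 712 CPM against 127 and 146 (1.57 and 2.28). Ccnd1, the cyclin of entry into the cell cycle, had 1.74 in each library, and the ubiquitin ligase gene Ube2ql1 had 1.56 and 1.74.

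First by the naming rule stood Gm8739, a pseudogene per RefSeq, at 68.4 and 58.2 CPM against 8.74 and 8.27 (2.83 and 2.68). Cells called female held 357 of its 408 UMIs in the adult and 134 of 165 in the aged library, cells with no sex call held the rest, and it was found in 0 of 135 adult and 0 of 58 aged male cells without Prg4, which allows shares of up to 2.22% and 5.17%. GENCODE lists it as antisense and the strand setting of the counting is not given in the sources used here, so its level is uncertain. The other genes higher by the naming rule, Kdr apart, were past 1.5-fold in both sexes of both libraries, 13 of 15 in all.

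Of the genes lower than in other fibroblasts, 10 of 10 named ones were past 1.5-fold in both sexes of both libraries. Gata6, a transcription factor of mesoderm, stood at 6.21 and 7.06 CPM against 36.1 and 34.4 (-2.37 and -2.14); 1 cell held 55.0% of its 20 aged UMIs, and the aged ratio without the cell of each set holding most was -3.07. Mfap4, a microfibril-associated protein, stood at 19 and 28.9 CPM against 80.2 and 110 (-2.03 and -1.89). Hsd11b1, which regenerates active glucocorticoid, stood at 42.1 and 44.8 CPM against 134 and 185 (-1.65 and -2.02). The cells thus had less of each than other fibroblasts in both libraries. The cells with Prg4 held Gata6 at 6.12 and 9.69 CPM, Mfap4 at 36.2 and 101 and Hsd11b1 at 35.9 and 30.2. The low Gata6 and Hsd11b1 levels are therefore not particular to the cells without Prg4.

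Nav3, a microtubule-binding protein, was at 143 and 128 CPM against 477 in each library (-1.74 and -1.89). The flavin monooxygenase Fmo2 had ratios of -2.71 and -1.62, the glutamate receptor subunit Gria4 -2.40 and -1.79, Lgi1 -2.60 and -1.71, Thsd4, which binds fibrillin, -1.78 and -2.12, and Cmah, a pathway enzyme of sialic acid, -1.58 and -1.91. The noncoding Gm56730 had -2.27 and -3.06. The cells with Prg4 also lay below other fibroblasts in Nav3 (72.1 and 48.4 CPM), Fmo2 (26.4 and 15.3) and Cmah (41.7 and 41.4).

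**Figure D3:**
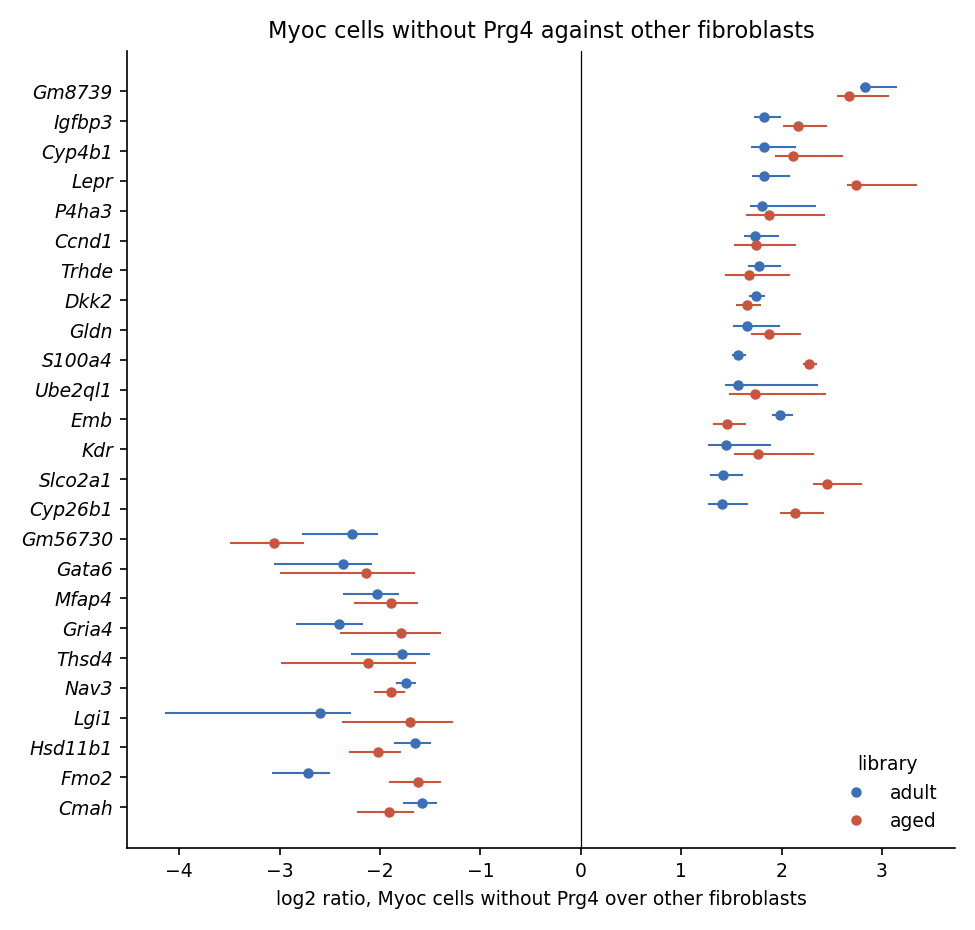
Log2 ratio of CPM (1 CPM added) in Myoc cells without Prg4 over other fibroblasts for the 15 genes highest and 10 lowest by the naming rule, in the adult (blue) and aged (red) library; lines are 95% counting intervals taken without the added CPM. Points of both libraries lie on the same side of 0 for each gene, from 2.83 and 2.68 for Gm8739 to -2.27 and -3.06 for Gm56730.

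Pathway lists were described by the count of genes past 1.5-fold, which 2.56% of all genes passed upward and 3.16% downward in the adult library, and 4.42% and 5.17% in the aged one. Of 11 measured Wnt ligands and targets 3 were higher and none lower in the adult library (median log2 ratio 0.10), and 5 were higher and 1 lower in the aged one (0.52), beside medians of -0.01 and -0.004 over all genes. The feedback targets Nkd1 (1.26 and 1.43) and Axin2 (0.73 and 1.24) and the Wnt inhibitor Apcdd1 (0.62 and 1.11) were higher in both. Against the cells with Prg4 Nkd1 stood at -0.29 and 0.59, Axin2 at 0.16 and -0.04 and Apcdd1 at 0.96 and 0.65. Of these only Apcdd1 was past 1.5-fold higher there in both libraries. Of 8 secreted Wnt modulators 2 were higher and 1 lower in the adult and 2 and 2 in the aged library. Sfrp4 was higher (1.05 and 0.98) and Dkk3 lower (-0.98 and -0.71). Against the cells with Prg4 they stood at 0.09 and -0.53 and at -0.72 and -1.53.

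In the BMP and TGF-beta list the ligand Bmp5 (1.35 and 1.5) and the TGF-beta-induced matrix protein gene Tgfbi (1.30 and 1.24) were higher, with 2 higher and 4 lower of 24 in the adult and 6 and 5 of 23 in the aged library. Of 19 collagen processing genes 4 were higher and none lower in each library, among them the cross-linking enzyme Lox (1.15 and 0.86) and the procollagen protease enhancer Pcolce (0.97 and 0.88). Of 15 elastic fibre genes 1 was higher and 2 lower in the adult and 1 and 4 in the aged library, and among them Fbln2 stood at 602 and 538 CPM against 269 and 230 (1.16 and 1.22). Against the cells with Prg4 Bmp5 stood at 1.14 and -0.24, Tgfbi at -0.22 and -0.63 and Lox at 0.05 and -0.33. Pcolce stood there at -0.07 and -0.14 and Fbln2 at -0.09 and -0.52, so none of these genes was higher in both libraries.

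Of 20 measured positional transcription factors 5 were higher and 4 lower in the adult and 6 and 5 in the aged library, with Emx2 (1.11 and 1.49), Tbx15 (1.02 and 1.26) and Prrx2 (1.01 and 1.01) higher and Tbx18 lower (-1.07 and -1.51). Against the cells with Prg4 Emx2 stood at 0.60 and 0.02, Tbx15 at 0.19 and -0.11 and Prrx2 at -0.23 and -0.29. None of these was past 1.5-fold there in both libraries, so these higher levels are not particular to the cells without Prg4. In the chemokine list 1 gene was higher and 8 lower of 18 in the adult library. In the aged one 3 were higher and 8 lower of 19. Aged male cells had 5 higher and 3 lower of 19, with no share over all genes of that sex beside it. Cxcl13, which attracts B cells, stood at -1.16 and -1.19 and Il33 at -0.96 and -1.06, while Ccl8 was higher (1.25 and 1.89). In the complement list of 13 none was higher, and 5 and 4 were lower, with C7 at -1.58 and -1.48. Of the lymphatic growth factors, Vegfd stood at -0.61 and -1.11 and Ccbe1, which promotes the processing of VEGF-C, at -0.90 and -0.53, so Ccbe1 did not pass 1.5-fold in the aged library.

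The closest set of cells was the Myoc cells with Prg4. In the adult library 32 of 9242 genes were 2-fold or more higher in the cells without Prg4 (0.346%) and 36 lower (0.390%). In the aged library 61 of 8234 were higher (0.741%) and 17 lower (0.206%). Of 8173 genes measured in both, 3 were higher (0.0367%) and 6 lower (0.0734%) in both libraries. The 3 were AW112010, Cyp26b1 and Ifi47.

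Interferon-inducible genes were among those higher without Prg4. The list summed to 2341 and 1972 CPM in the cells without Prg4, 1633 and 1272 in those with it, and 2501 and 1513 in other fibroblasts. Against other fibroblasts 0 of 23 genes of the list were past 1.5-fold higher and 2 lower in the adult library (median -0.19), and 7 higher and 2 lower in the aged one (0.39), so in the adult library the cells without Prg4 did not lie above other fibroblasts. Of 23 measured interferon response genes 8 were past 1.5-fold higher in the adult library and of 22 in the aged library 11, none was lower in either, and the medians were 0.47 and 0.66, beside 2.37% and 3.22% of all genes past 1.5-fold higher, 2.25% and 2.11% lower, and medians of 0.01 and 0.01. AW112010, an interferon-inducible transcript, stood at 83.2 and 36.4 CPM against 33.7 and 11.2 in the cells with Prg4 (1.28 and 1.62). The GTPase gene Ifi47 had ratios of 1.20 and 1.12, Gbp6 0.88 and 1.30, Igtp 1.02 and 0.87, Gm4951 0.96 and 0.93, Ifit1 0.89 and 1.24 and the nucleic acid sensor Zbp1 0.86 and 1.91. Female cells were 63.5% and 66.3% of the called cells without Prg4 but 44.6% and 52.5% of those with it, and the part of this mix was not tested. Within female cells 8 of 23 and 11 of 21 genes of the list were higher, and within male cells 6 of 18 and 3 of 8, with 1 lower in the aged male cells. No share over all genes of the same sex stands beside these counts.

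In aged male cells Igtp had 0 UMIs without Prg4 against 5 with it, and Gm4951 had 2 against 6 (-0.88). With 10 or more Myoc UMIs required, Gm4951 stood at -0.63 in the adult library. The retinoid enzyme Cyp26b1 was higher (1.47 and 1.13), as were Nav3 (0.97 and 1.38) and the guidance ligand Efna5 (0.94 and 1.02, but -0.07 in aged male cells).

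Of the genes lower without Prg4, the secreted Fibin stood at 4.03 and 5.29 CPM against 18.9 and 14.5 in the cells with Prg4 (-1.99 and -1.30). Ccn2, a matricellular gene induced by TGF-beta and mechanical load, stood at 12.9 and 7.76 CPM against 29.2 and 31.3 (-1.12 and -1.88), with 31.2% of its adult UMIs in 1 cell. The natriuretic peptide clearance receptor Npr3 had -1.20 and -1.52, the network collagen Col8a1 -1.47 and -1.22 (in the adult library 0.46 when the rule was applied after thinning, and -0.74 without the cell of each set holding most of its UMIs), and Mfap4 -0.90 and -1.77. P4ha3 (-0.98 and -0.79) was thus lower than in the cells with Prg4 while higher than in other fibroblasts. The cartilage matrix gene Cilp had -0.77 and -1.19 but 1.09 in adult male cells. Tiam2 (-0.99 and -1.33), Gng4 (-1.10 and -0.94) and Gm26771 (-1.07 and -1.01) completed the list. Only 3 of the 10 higher and 5 of the 10 lower named genes were past 1.5-fold in both sexes of both libraries.

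The study's own contrast, aged against adult, was then made within the cells. Of 9016 measured genes 66 were 2-fold or more higher (0.732%) and 131 lower (1.45%) in the aged Myoc cells without Prg4. Other fibroblasts had 46 of 8799 higher (0.523%) and 80 lower (0.909%), and Myoc cells with Prg4 94 of 8681 higher (1.08%) and 250 lower (2.88%). These 3 sets come from the same libraries, so their values stand side by side with no test of a difference between them.

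Matrix genes were among those higher in the aged library. Lrrc15, a surface protein of activated fibroblasts, stood at 3.86 CPM in adult and 31.1 CPM in aged cells without Prg4, a log2 ratio of 2.72 (2.33 to 3.74). The cells with Prg4 had 2.65, and other fibroblasts 0.65, at 0.69 and 1.66 CPM. Cthrc1, a secreted collagen triple helix protein, stood at 11.7 and 39.2 CPM (1.66, 1.29 to 2.19), with 1.59 in the cells with Prg4 and 0.02 in other fibroblasts.

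Comp, a cartilage and tendon thrombospondin, is outside the naming rule and was chosen after its values were seen. It stood at 26.7 and 63.9 CPM (1.23), with 4.34 CPM in aged other fibroblasts. Its aged over adult ratio in the cells with Prg4 was -0.12. The cells without Prg4 over those with it had -1.72 in the adult and -0.37 in the aged library, so the adult cells with Prg4 already held more. After thinning, at least 1 of Comp, Lrrc15, Cthrc1 and the tendon gene Tnmd, a group chosen after its values were seen, was found in 13.5% of the adult cells without Prg4 (10.4 to 17.3%) and 33.5% of the aged ones (26.9 to 40.6%). Other fibroblasts stood at 5.30% and 5.58% and cells with Prg4 at 26.7% and 40.0%. At least 2 of the 4 were found in 1.23% (0.401 to 2.85%) and 9.28% (5.59 to 14.3%) of the cells without Prg4, and in 0.129% and 0.404% of other fibroblasts. Cells with Prg4 stood higher in both libraries, at 4.15% (1.91 to 7.73%) and 11.1% (6.92 to 16.6%). In aged male cells Lrrc15 came from 2 cells and Comp from 6.

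Other matrix and growth genes were higher in the other fibroblasts too. Postn, periostin, stood at 117 and 434 CPM (1.89, 1.76 to 2.03), with 1.94 in other fibroblasts and 1.25 in the cells with Prg4. Of 7 measured fibrillar collagens 4 were past 1.5-fold higher and none lower in the cells without Prg4 (median 0.61), 6 in other fibroblasts (0.67) and 5 in the cells with Prg4 (0.83), beside 3.29%, 1.94% and 4.25% of all genes. Col1a1 stood at 1037 and 2282 CPM (1.14) and Col3a1 at 2427 and 5297 CPM (1.13). The collagen-binding Sparc had 1.29.

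Of 10 imprinted growth genes 4 were past 1.5-fold higher and 1 lower, beside 3.29% and 7.17% of all genes. Other fibroblasts had 4 higher and 0 lower of 10, beside 1.94% and 3.7%, and cells with Prg4 4 and 1, beside 4.25% and 8.62%. Rian stood at 1.73 (2.27 in other fibroblasts, 1.99 with Prg4), Meg3 at 1.36 and Peg3 at 1.29. The RNA-binding Igf2bp2 had 2.05, with 1.91 and 1.96 in the other sets. The secreted Cgref1 had 1.80, the noncoding B830012L14Rik 2.15 and Gm31522 2.46, and the aldehyde dehydrogenase Aldh3a1 1.74, with 0.60 in other fibroblasts and 2.76 with Prg4. The lipase inhibitor gene Angptl4 stood at 26.3 and 78.0 CPM (1.53).

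Apol9a (2.02) and Slfn2 (1.86), both interferon-inducible, were at -0.29 and -0.15 in other fibroblasts and at 0.82 and 1.03 in the cells with Prg4. In male cells without Prg4 they stood at -0.23 (2 aged against 6 adult UMIs) and -1.21 (1 against 8). The reporter transcript eGFP had a ratio of 2.0, but 1 aged cell held 78.3% of its UMIs, and without the cells with 2 or more UMIs of markers of another class it stood at -0.03.

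The genes lower in the aged cells held several of interferon response and antigen presentation. Iigp1, an interferon-inducible GTPase, stood at 455 CPM in adult and 94.9 CPM in aged cells without Prg4 (-2.25, -2.45 to -2.08), with -1.75 in other fibroblasts and -1.51 with Prg4. Nlrc5, the transactivator of class I genes, had -2.13, with -2.61 and -1.60. Of 12 class I presentation genes 5 were past 1.5-fold lower and 1 higher (median -0.52), beside 7.17% of all genes lower. Other fibroblasts had 9 of 12 lower (-0.88), where 3.7% of all genes were, and cells with Prg4 7 (-0.59), where 8.62% were. B2m stood at -0.66 in the cells without Prg4.

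Ctla2a, a cysteine protease inhibitor, had the lowest ratio, -3.22 (-3.58 to -2.96), at 318 and 33.2 CPM, with 63.8% of its aged UMIs in 1 of 9 cells and a ratio of -4.30 without the cell of each age holding most of its UMIs. Male cells held 1730 and female cells 54 of its 1897 adult UMIs. Of its 94 aged UMIs male cells held 23 and female cells 1, and the rest lay in cells with no sex call. The clock repressor Nr1d1 had -2.19 on 79 adult and 6 aged UMIs, and Trim69 -2.10. The other lower genes by the naming rule were C130026I21Rik (-2.24), Gm35853 (-2.15), ENSMUSG00000095041 (-2.05), the carboxylesterase Ces1d (-2.01), Mast1 (-1.96), Fam117a (-1.93) and the phosphodiesterase Pde4c (-1.85). Of the 12 lower named genes 11 were past 1.5-fold in both sexes, Pde4c standing at -0.49 in male cells, and of the 12 higher ones 9. Several of these ratios rest on few aged UMIs. In female cells Ctla2a, Nr1d1 and Gm35853 had 1 aged UMI each, and in male cells C130026I21Rik, ENSMUSG00000095041 and Fam117a had 1 each. The female interval of Gm35853, -7.98 to 0.197, includes 0, so the count is limited by counting error.

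**Figure D4:**
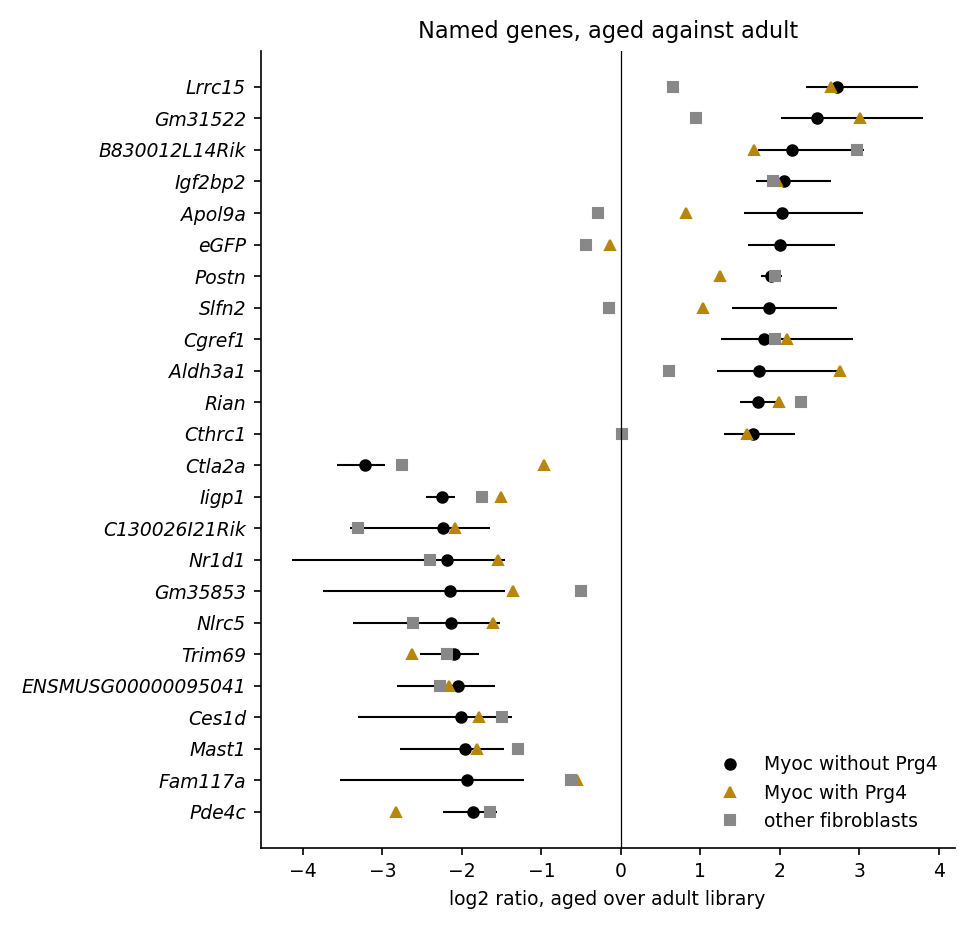
Log2 ratio of aged over adult CPM (1 CPM added) for the 12 highest and 12 lowest genes by the naming rule in Myoc cells without Prg4 (black, with 95% counting intervals), and for the same genes in Myoc cells with Prg4 (triangles) and other fibroblasts (squares). Lrrc15 and Cthrc1 lie near each other in both Myoc sets (2.72 and 2.65, 1.66 and 1.59) and lower in other fibroblasts (0.65 and 0.02). The 0.65 rests on 0.69 and 1.66 CPM, where the added 1 CPM lowers the ratio. The eGFP value rests on 1 aged cell.

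The interferon response list differed between the sets in the age contrast. In other fibroblasts none of 23 measured genes was past 1.5-fold higher and 14 were lower in the aged library (median -0.68). Over all genes 1.94% were higher there and 3.7% lower. In the Myoc cells without Prg4 4 were higher and 5 lower (-0.02), beside 3.29% and 7.17% of all genes. With Prg4 1 of 21 was higher and 7 lower (-0.21), beside 4.25% and 8.62% of all genes. The higher ones included Ifit3 (1.42), the ubiquitin-like Isg15 (1.41), the transcription factor Irf7 (0.91) and Ifit1 (0.65), which stood at -0.62, -0.47, -0.10 and -1.57 in other fibroblasts. In the cells with Prg4 Isg15 stood at 0.38, Irf7 at 0.27 and Ifit1 at 0.31, and Ifit3 was not measured.

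The pooled values hold cells called female, cells called male and cells with no call, and the first 2 groups are given apart here. In female cells without Prg4 Isg15 stood at 97.5 CPM in adult and 357 CPM in aged ones (1.86), and in male cells at 44.4 and 23.2 CPM (-0.91). Ifit3 was at 17.3 and 78.9 CPM (2.13) in female and at 10.2 and 1.29 CPM (-2.29) in male cells, the last value resting on 1 UMI. Irf7 had 1.27 and -1.24, Usp18 0.87 and -2.08, Oasl2 0.68 and -1.68 and Ifit1 0.94 and -0.83 (-1.86 to 0.02). The interval of the male Ifit1 ratio includes 0, and the signs were otherwise opposite between the sexes.

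Over the list, 7 genes were higher and 6 lower of 23 in female cells (median -0.07), and 1 higher and 8 lower of 16 in male cells (-0.62). Female other fibroblasts had none higher and 14 lower (-0.71) and male ones none higher and 10 lower of 22 (-0.58). No share over all genes of the same sex stands beside these counts, and counting error limits the values of the 58 aged male cells. Ifit1 was found in 34 of 114 female and 4 of 58 male aged cells without Prg4. The tenth of cells with the most UMIs of the list held 39.1% of them in the adult and 38.9% in the aged library, beside 38.1% and 33.9% in other fibroblasts. Cells carry no mark of their mouse here, and a difference between sexes cannot be told apart from one between the pooled mice.

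**Figure D5:**
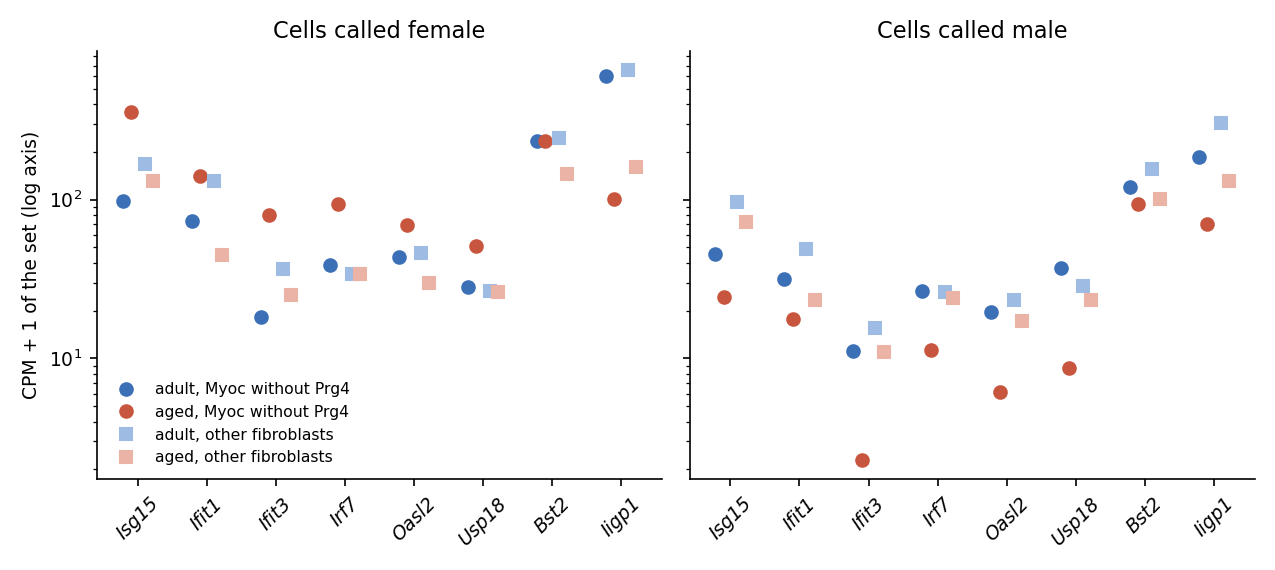
Summed level (CPM + 1, log axis) of 8 interferon-inducible genes in Myoc cells without Prg4 (circles) and other fibroblasts (squares) of the adult (blue) and aged (red) library, for cells called female (left) and male (right). In female Myoc cells Isg15 is higher in the aged library (357 against 97.5 CPM), in male ones lower (23.2 against 44.4 CPM), while Iigp1 is lower in the aged library in each panel.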

How the data were processed

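Per the labels' protocols, sorted cells were captured with a droplet 3' kit, 1 library per age. The deposited values are natural log values, ln(1 + UMIs scaled to 10000 per cell), as found from the values: un-logged cells summed to 10000, and 100% of values gave whole UMIs within 0.01. The submitters' processing notes name Seurat 5.0.3 and the builds GRCm39 and mm10 without a role; the aligner and the cell filters were not given there. The tables held 7308 and 13969 cells with 90875406 and 128940414 UMIs.

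Aged cells whose barcode was also in the adult table were dropped. The cells and gene lists were chosen with earlier results of these data known. UMIs were summed per set and library and divided by the set total (CPM), with log2 ratios after adding 1 CPM and exact conditional binomial intervals. A gene was measured with a UMI in 10% of the cells of either set and 50 UMIs. Genes were named by rank: against other fibroblasts and against cells with Prg4 by the smaller of both libraries' ratios (15 and 10, then 10 and 10), and 12 and 12 between ages, without sex-linked, mitochondrial, ribosomal protein, haemoglobin, Dcpp and rule genes; 2 to 4 genes of a list were named by size. No doublet caller was run; cells with 2 or more UMIs of another class were dropped as an alternative (28 adult, 6 aged), leaving out markers that 10% of other fibroblasts carry. Python 3.11.15, numpy 2.4.6, scipy 1.17.1, pandas 2.3.3 and matplotlib 3.10.9 were used, and the scripts were tested on simulated data.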

Additional observations from a re-analysis of the deposited data

Results flagged for a closer look

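Each gene here had ratios of opposite sign in 2 groups of cells under the same contrast, aged over adult, and none of these differences was tested. In Myoc cells without Prg4, the log2 ratio of the surface protein gene Emb was -0.92 in cells called female and 0.61 in cells called male. The flavin monooxygenase Fmo2 stood at -0.97 in female and 2.75 in male cells, the latter on 17 adult and 52 aged UMIs from 9 aged cells. Over both sexes Fmo2 stood at 1.32 in the cells without Prg4 and at -0.75 in those with it. The chemokine Cxcl10 stood at -0.98 in female and 1.34 in male cells, where 6 aged cells held its UMIs. The interferon-inducible genes went the other way, female first: Ifit3 2.13 and -2.29, Irf7 1.27 and -1.24, Isg15 1.86 and -0.91, Oasl2 0.68 and -1.68, and Usp18 0.87 and -2.08. The male values rest on 1 to 18 aged UMIs of each of these 5 genes.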

How the results depend on the processing

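No paired analysis was possible because each age has 1 library and no replicate numbers pair them. Of 1344 values of 114 named gene ratios under the alternatives, 1090 lay no further from the main ratio than its farther interval end. Another 242 moved further and 12 changed sign. Male cells alone gave the opposite sign for Gm8739 (-0.48 adult, -0.63 aged), Cilp (1.09 adult), Efna5 (-0.074), Gm4951 (-0.88) and Igtp (-2.50) in the aged library, and Apol9a (-0.23) and Slfn2 (-1.21) between ages. Cells with 10 or more Myoc UMIs did so for Gm4951 (-0.63 adult) and eGFP (-0.030), dropping cells with markers of another class for eGFP (-0.026), and the rule after thinning for Col8a1 (0.46 adult). The share of fibroblasts in the adult and aged library was 4.43% and 2.12% with 3 of the 4 genes, 5.51% and 2.59% after thinning, 8.5% and 5.53% in female cells, 6.08% and 1.97% in male cells, 4.50% and 1.63% with 10 or more Myoc UMIs, and 4.81% in the aged table as deposited. Against other fibroblasts, counts of genes higher and lower were 115 and 345 adult and 233 and 487 aged with no filter on the share of cells. Genes lower numbered 159 and 245 after thinning, 64 and 98 with 5 CPM added, 158 and 368 in male cells, and 193 and 263 with 10 or more Myoc UMIs, and 265 aged with 3 of the 4 genes. Genes higher in the aged library numbered 217 in male cells and 214 with 10 or more Myoc UMIs, and 89 were higher and 94 lower with all cells as deposited. Against cells with Prg4 in the adult library, 81 were higher after thinning, 86 higher and 71 lower in female cells, 10 and 20 with 5 CPM, 77 and 63 against cells with 3 or more Prg4 UMIs, 63 higher with no share filter and 77 lower with 10 or more Myoc UMIs. In the aged library 28 were higher with all cells as deposited, 33 higher and 9 lower with 5 CPM, and 27 lower with 3 of the 4 genes, 53 in male cells, 40 with 10 or more Myoc UMIs and 29 against cells with 3 or more Prg4 UMIs. Between ages 11 were higher and 5 lower with all cells as deposited, where most adult barcodes stand in both groups, 41 and 65 with 5 CPM, and 206 lower in female cells. The cause of these shifts was not tested. The alternatives with 10 or more Myoc UMIs, with 3 or more Prg4 UMIs, and without the cell holding most of a gene's UMIs were chosen after seeing the data. Only 58 aged cells were called male, so counting error limits their values.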
